A study of Mus musculus with 12 samples.

Results

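The genes described here are 10 markers of large-diameter sensory neurons, including the proprioceptors: Pvalb, Whrn, Nefh, Nefm, Calb1, Spp1, Necab2, Cntnap2, Vsnl1 and Heg1. They were taken by name from the 55416 genes counted in each library. All 10 matched 1 gene identifier each, and all 10 passed the filter on low counts that kept 16384 genes for testing. RNA came from dorsal root ganglia, which hold the cell bodies of the sensory neurons of trunk and limbs, of adult C57Bl6 mice, with 6 libraries from inducible Prdm12 knockout animals (iKO) and 6 from controls. The 6 iKO libraries came from 3 females and 3 males that carried Rosa26-CreERT2 and 2 floxed Prdm12 alleles (Fl/Fl) and had received tamoxifen. Among controls, 4 had received tamoxifen. Control 1 was a Cre-carrying Fl/+ female, control 2 an Fl/+ female without Cre, control 3 an Fl/+ male without Cre, and control 4 a Cre-carrying male without a floxed allele (+/+). Controls 5 and 6 were Cre-carrying Fl/Fl males given corn oil. Per the series' design text, tissue was taken 1 month after injection.

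The study asks which genes in the adult ganglion depend on Prdm12, which encodes a zinc finger protein known for its role in the formation of pain-sensing neurons. Large-diameter neurons are the other main branch of the ganglion. Their thick myelinated axons carry touch and, in proprioceptors, the stretch and tension of muscle, and the cells are recognised by heavy neurofilaments, by calcium-binding proteins such as parvalbumin, and by the neurotrophin receptor TrkC (Ntrk3). Rosa26 drives the Cre recombinase in all cell types, so the allele is not restricted to neurons. The corn-oil controls were all male, shared the genotype of iKO and were the last numbered, so agent, genotype and run of sample numbers cannot be told apart between the kinds of control. In whole-ganglion RNA, fewer cells of a type and less RNA per cell cannot be told apart either. Whether 1 library holds 1 animal or a pool is not stated in the labels.

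Total counts ran from 13943784 to 20377766 per library, and 24886 to 26592 genes had at least 1 count. Levels are given as CPM, counts relative to library size after scaling by the trimmed mean of M-values. Prdm12 averaged 23.3 ± 2.51 CPM in iKO and 117 ± 29.4 CPM in controls (SD, n = 6 each). It fell by 2.33 on the log2 scale (SE 0.18, adjusted p = 8.59e-05 with edgeR's quasi-likelihood test). Every iKO library lay below every control, of which control 6 was the lowest at 64.6 CPM. The counts cover the whole gene, so transcripts that lack only the deleted part would still be counted.

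Both extremes among the 10 genes tended to fall in a few libraries. The library iKO 1 was the lowest of all 12 for 6 genes (Nefh, Nefm, Calb1, Spp1, Cntnap2 and Vsnl1) and the highest for Heg1. The summed level of 12 macrophage genes was 656 CPM there, against 236 to 413 CPM in the other 11 libraries, and that of 10 endothelial genes was 301 CPM, against 136 to 185 CPM. The sums of bone cell, myelinating Schwann cell and satellite glia genes were also at their highest in iKO 1. Its summed level of 12 pan-neuronal genes was the lowest of the 12, at 8346 CPM. In control 6 the summed level of 12 skeletal muscle genes was 576 CPM, against 24.2 to 129 CPM elsewhere, and all 12 were at their highest there. Where leaving out either library moved a value by much, the value without it is given too.

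**Figure D1:**
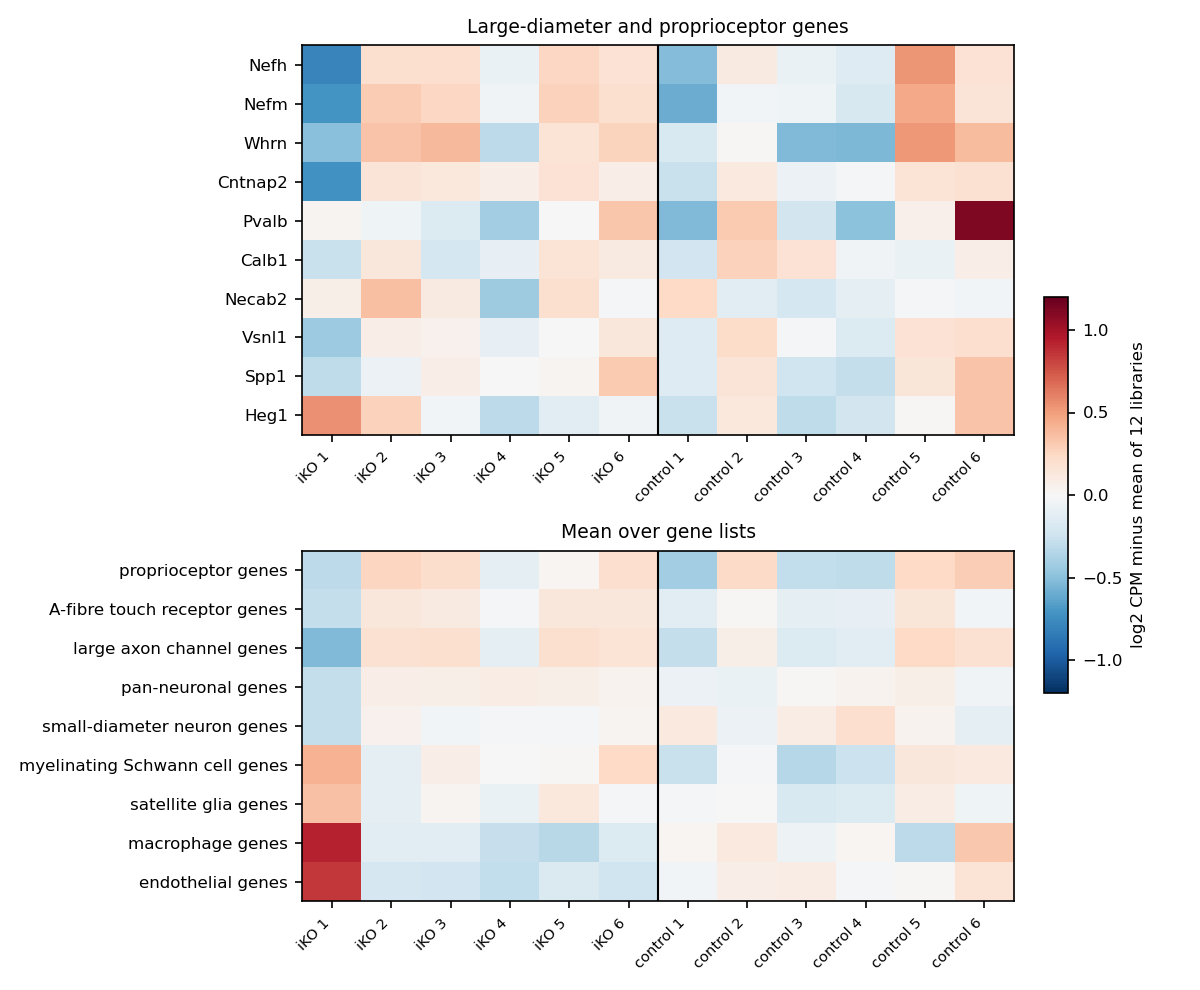
Each row is a gene (upper panel) or the mean over the genes of a list (lower panel), each column a library, and colour the log2 CPM minus the mean of the 12 libraries, with the 6 iKO libraries left of the line and the 6 controls right of it. The column of iKO 1 is blue for the 6 genes where it is the lowest library and for Whrn. It is red for Heg1 and for macrophage, endothelial, myelinating Schwann cell and satellite glia genes. The darkest red cell is Pvalb in control 6.

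None of the 10 genes passed the test between iKO and control. The count was 0 of 10, beside 155 of 16384 genes tested (0.946%) with edgeR's quasi-likelihood test at an adjusted p of 0.05, and adjusted p-values of the 10 genes ran from 0.832 to 0.986. At an unadjusted p under 0.05 the count was also 0 of 10, beside 9.52% of all genes tested, and DESeq2 called 0 of 10. Levels of iKO and control libraries overlapped for all 10 genes. Of all genes tested, 1.54% had groups that did not overlap. The log2 fold change was positive for 7 of the 10 genes, beside 50% of all genes tested, with a median of 0.03.

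Neurofilaments are the intermediate filaments that fill and widen large axons, and Nefh and Nefm encode their heavy and medium subunits. Nefh ran from 1049.8 to 2157 CPM in iKO, with a median of 2068 CPM, against 1265, 1953, 1721 and 1633 CPM in tamoxifen-injected controls 1 to 4 and 2616 and 2044 CPM in corn-oil controls 5 and 6. The lowest value of the 12 was iKO 1 and the highest was control 5, so iKO lay within the range of controls apart from iKO 1. In iKO against control the log2 fold change was 0.03 (95% interval -0.36 to 0.43). Without iKO 1 it was 0.13 (-0.21 to 0.46).

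Nefm showed the same order of extremes. It ran from 1513 to 3087 CPM in iKO, with a median of 2910.3 CPM, against 1648, 2436, 2413 and 2176.5 CPM in tamoxifen-injected controls and 3407 and 2772 CPM in corn-oil controls. Its log2 fold change was 0.15 (95% interval -0.24 to 0.54), and 0.24 (-0.09 to 0.57) without iKO 1. The exons of Nefm share 1108 bases (19.2% of their length) with Nefl, the light-subunit gene on the opposite strand, and the library kit did not record strand, so reads there cannot be told apart.

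Cntnap2 encodes Caspr2, the cell adhesion protein that holds potassium channels beside the nodes of myelinated axons. Its level was 163 CPM in iKO 1 and 284 to 305 CPM in the other 5 iKO libraries, against 224, 293, 257 and 267 CPM in tamoxifen-injected controls and 302 and 306 CPM in corn-oil controls. Only iKO 1 lay outside the range of controls. Between the groups the log2 fold change was 0.01 (95% interval -0.27 to 0.29), and 0.10 (-0.05 to 0.25) without iKO 1.

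Whrn encodes whirlin, a scaffold protein of hair-cell stereocilia that proprioceptors also make. It ran from 11.2 to 20.9 CPM in iKO, with a median of 18.5 CPM, against 14.0, 16.1, 10.98 and 10.9 CPM in tamoxifen-injected controls and 22.9 and 20.8 CPM in corn-oil controls. The 2 kinds of control did not overlap, a split whose share over all genes was not counted. The iKO libraries spread between the 2 kinds: 4 of 6 lay above every tamoxifen-injected control and 5 of 6 below both corn-oil controls. Over all controls the log2 fold change was 0.10 (95% interval -0.39 to 0.59), and it was 0.19 without iKO 1 as well as without control 6.

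**Figure D2:**
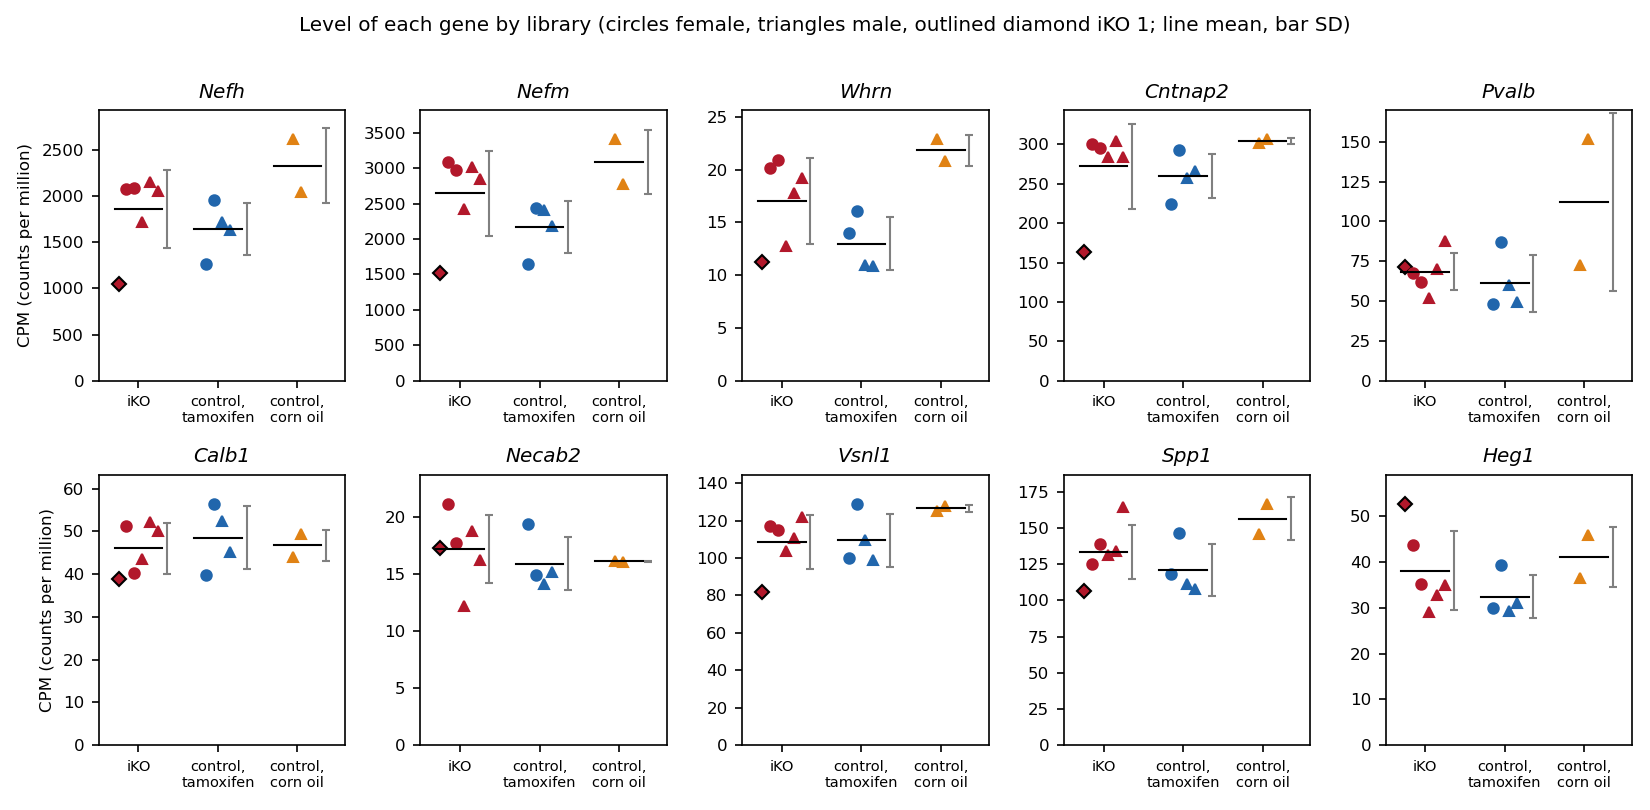
Each panel plots 1 gene, with its level in CPM on a vertical axis from 0 and 1 point per library in iKO (6), tamoxifen-injected controls (4) and corn-oil controls (2), the line marking the mean and the bar the SD. Nefh, Nefm, Whrn and Cntnap2 are higher in both corn-oil controls than in all 4 tamoxifen-injected controls. The share of all genes with such a split was not counted. The outlined diamond, iKO 1, is the lowest point for 6 genes.

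Among the calcium-binding proteins, Pvalb encodes parvalbumin, a fast calcium buffer of proprioceptors and of fast skeletal muscle fibres. It ran from 52.1 to 88.0 CPM in iKO, with a median of 68.8 CPM, against 48.4, 86.9, 60.1 and 49.6 CPM in tamoxifen-injected controls and 72.8 and 152 CPM in corn-oil controls. Only the control 6 value lay above the highest iKO library. The log2 fold change was -0.16 (95% interval -0.77 to 0.45), and 0.12 (-0.25 to 0.49) without control 6. In control 6 the muscle gene Acta1, skeletal actin, was at 172 CPM, against 6.65 to 41.4 CPM in the other 11 libraries, and Tnnt3, a fast troponin, was at 108 CPM, against 3.40 to 24.0 CPM. The part of these muscle transcripts in the Pvalb level of control 6 was not tested.

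**Figure D3:**
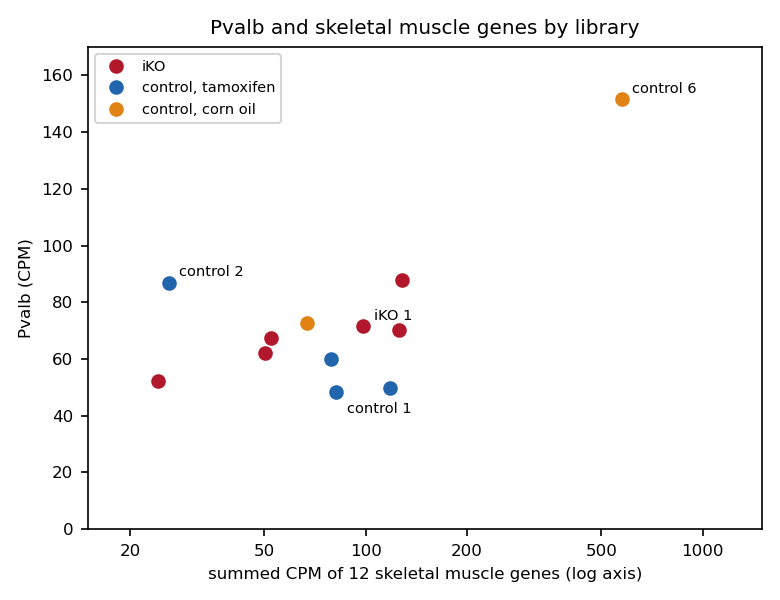
Each point is a library, with the summed CPM of 12 skeletal muscle genes on a log axis and Pvalb in CPM on the vertical axis. Control 6 stands apart on both axes, at 576 and 152 CPM, while control 2 has the third highest Pvalb level, 86.9 CPM, at a muscle sum of 26.1 CPM.

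Calb1 encodes calbindin-D28k, another calcium buffer. It ran from 38.8 to 52.2 CPM in iKO, with a median of 46.8 CPM, against 39.9, 56.5, 52.5 and 45.3 CPM in tamoxifen-injected controls and 44.1 and 49.4 CPM in corn-oil controls. The ranges of iKO and of tamoxifen-injected controls nearly coincided and held both corn-oil values, and the log2 fold change was -0.05 (95% interval -0.25 to 0.16), which is a change of between 16.2% lower and 11.6% higher. Without iKO 1 it was -0.01 (-0.21 to 0.19). Vsnl1 encodes visinin-like protein 1, a neuronal calcium sensor. It ran from 81.9 to 122 CPM in iKO, with a median of 113 CPM, against 99.97, 129, 109.5 and 99.2 CPM in tamoxifen-injected controls and 125 and 128 CPM in corn-oil controls. All 6 iKO libraries lay below both corn-oil controls, a split whose share over all genes was not counted. Against corn-oil controls the Vsnl1 log2 fold change was -0.22 (95% interval -0.53 to 0.09). Of the 6 iKO libraries, 1 lay above the median of all controls. The log2 fold change over all controls was -0.08 (-0.29 to 0.14), and -0.02 (-0.18 to 0.15) without iKO 1.

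Necab2 encodes a neuronal protein with EF-hand calcium-binding motifs. It ran from 12.2 to 21.2 CPM in iKO, with a median of 17.5 CPM, against 19.4, 14.9, 14.2 and 15.2 CPM in tamoxifen-injected controls and 16.1 and 16.1 CPM in corn-oil controls. The highest and the lowest library of the 12 were both iKO, iKO 2 and iKO 4, and the log2 fold change was 0.07 (95% interval -0.16 to 0.30).

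Spp1 encodes osteopontin, a secreted phosphoprotein that bone cells and macrophages also make. It ran from 107 to 164 CPM in iKO, with a median of 133 CPM, against 118, 147, 111 and 108 CPM in tamoxifen-injected controls and 146 and 167 CPM in corn-oil controls. In iKO 1, where the macrophage sum was the highest and the pan-neuronal sum the lowest, Spp1 was the lowest of the 12 libraries. The summed level of 10 bone cell genes ran from 26.0 to 52.2 CPM in iKO, with iKO 1 the highest, and from 27.2 to 39.6 CPM in controls. Within that list Ctsk, the collagen-cleaving protease cathepsin K, had the highest means, 11.6 CPM in iKO and 11.7 CPM in controls, and Bglap, osteocalcin, the lowest, 0.11 CPM in iKO and 0.20 CPM in controls. The part of bone cells or of macrophages in the Spp1 level was not tested. For Spp1 the log2 fold change was 0.02 (95% interval -0.23 to 0.28), and 0.07 (-0.19 to 0.33) without iKO 1 and 0.10 (-0.15 to 0.34) without control 6. Its exons share 309 bases (18.8%) with Gm42793, an unnamed gene model on the same strand, and reads there cannot be told apart.

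Heg1 encodes a transmembrane receptor best known from endothelial cells, where it binds the cerebral cavernous malformation protein Krit1. It ran from 29.0 to 52.8 CPM in iKO, with a median of 35.2 CPM, against 30.1, 39.4, 29.3 and 31.0 CPM in tamoxifen-injected controls and 36.5 and 45.8 CPM in corn-oil controls. The highest library was iKO 1. Macrophage, endothelial, bone cell, myelinating Schwann cell and satellite glia sums were at their highest there as well. The part of endothelial or other transcripts in that Heg1 level was not tested. For Heg1 the log2 fold change was 0.06 (95% interval -0.26 to 0.37), and -0.02 (-0.29 to 0.26) without iKO 1. An antisense gene model, Gm15657, shares 318 bases (2.5%) of the exons of Heg1, and reads there cannot be told apart.

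The 10 intervals differed in width. The widest was that of Pvalb, which spanned changes from 41.2% lower to 36.9% higher, followed by Whrn, from 23.6% lower to 50.6% higher. The narrowest were those of Calb1 and Vsnl1, and the Vsnl1 interval spanned 18.4% lower to 9.95% higher. A value that missed the threshold does not show equal levels: for Nefm the interval reached 45.2% higher.

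Levels are also given per kilobase of annotated exon, so that the genes can be set beside each other. Over the 12 libraries the neurofilament genes led, with Nefh at 467 ± 105 CPM per kilobase and Nefm at 443 ± 99.4 CPM per kilobase (SD, n = 12). They were followed by Spp1 at 80.8, Pvalb at 70.5, Vsnl1 at 57.2, Cntnap2 at 26.7, Calb1 at 9.70, Necab2 at 7.92, Heg1 at 2.89 and Whrn at 2.25 CPM per kilobase. The step between neighbours held in all 12 libraries for Nefm over Spp1, Vsnl1 over Cntnap2, Cntnap2 over Calb1 and Necab2 over Heg1. It held in 11 for Nefh over Nefm, in 10 for Spp1 over Pvalb and for Heg1 over Whrn, and in 9 for Pvalb over Vsnl1 and for Calb1 over Necab2, so those neighbours were not apart in every library. Across libraries Pvalb varied most, with its highest level 3.13 times its lowest, and Calb1 least, with 1.46 times. The first of these rests on control 6: without it the Pvalb ratio was 1.82, below those of Nefh (2.49), Nefm (2.25), Whrn (2.10) and Cntnap2 (1.87). Without iKO 1 the least was Vsnl1, with 1.30 times.

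Levels were also set against the mean log2 level of 12 pan-neuronal genes in the same library, a measure added after the values were seen. On that measure 0 of the 10 genes differed between iKO and control at an unadjusted p under 0.05 (2-sided exact permutation test over 924 relabellings). That test takes no account of sex or kind of control. It was not run on all genes, so no share stands beside the count. The smallest p was that of Vsnl1, 0.262, with 1 of 6 iKO libraries above the control median (log2 difference -0.11, Benjamini-Hochberg (BH) adjusted exact p = 0.873).

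Each kind of control gave another picture of the same iKO libraries, and the comparisons share those libraries. Against the 4 tamoxifen-injected controls, 0 of 10 genes were called, beside 222 of all genes tested (1.35%, edgeR's quasi-likelihood test). Whrn was the 1 gene at an unadjusted p under 0.05, beside 17% of all genes tested. Its log2 fold change was 0.40 (95% interval 0.02 to 0.79, edgeR adjusted p = 0.275). Nefm followed with 0.29 (-0.11 to 0.69) and Heg1 with 0.22 (-0.04 to 0.48). With no filter on low counts, Whrn and Nefm were called, 2 of 10 beside 927 of 35885 genes (2.58%).

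Without iKO 1 the call on Whrn against tamoxifen-injected controls changed. Its log2 fold change was then 0.53 (SE 0.11, edgeR adjusted p = 0.00695), 1 of the 10 genes called beside 1459 of all genes tested (8.87%). Nefm had 0.41 (SE 0.12, edgeR adjusted p = 0.0583). In a fit without iKO 1 and without both corn-oil controls, added after the values were seen, Whrn rose by 0.53 and Nefm by 0.41 (edgeR adjusted p = 0.00709 and 0.0495), 2 of 10 beside 1586 of all genes tested (9.62%). In that fit Nefh had 0.30 and Cntnap2 had 0.18 (edgeR adjusted p = 0.121 and 0.0874).

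Against the 2 corn-oil controls, 0 of 10 genes were called, beside 24 of all genes tested (0.146%, edgeR). Pvalb was the 1 gene at an unadjusted p under 0.05, beside 5.3% of all genes tested. Its log2 fold change was -0.75 (95% interval -1.44 to -0.06, edgeR adjusted p = 0.887), and control 6 alone lay above all iKO libraries. Without control 6 it was -0.12 (-0.83 to 0.59, edgeR adjusted p = 0.99975), in a fit added after the values were seen that takes the lone corn-oil control to vary like the other libraries. Without iKO 1 it was -0.76 (-1.61 to 0.09). For Whrn it was -0.47 (-0.97 to 0.03), for Heg1 -0.30 (-0.65 to 0.05) and for Nefh -0.26 (-0.81 to 0.29). With no filter on low counts Pvalb was called, 1 of 10 beside 349 of 35885 genes (0.973%).

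**Figure D4:**
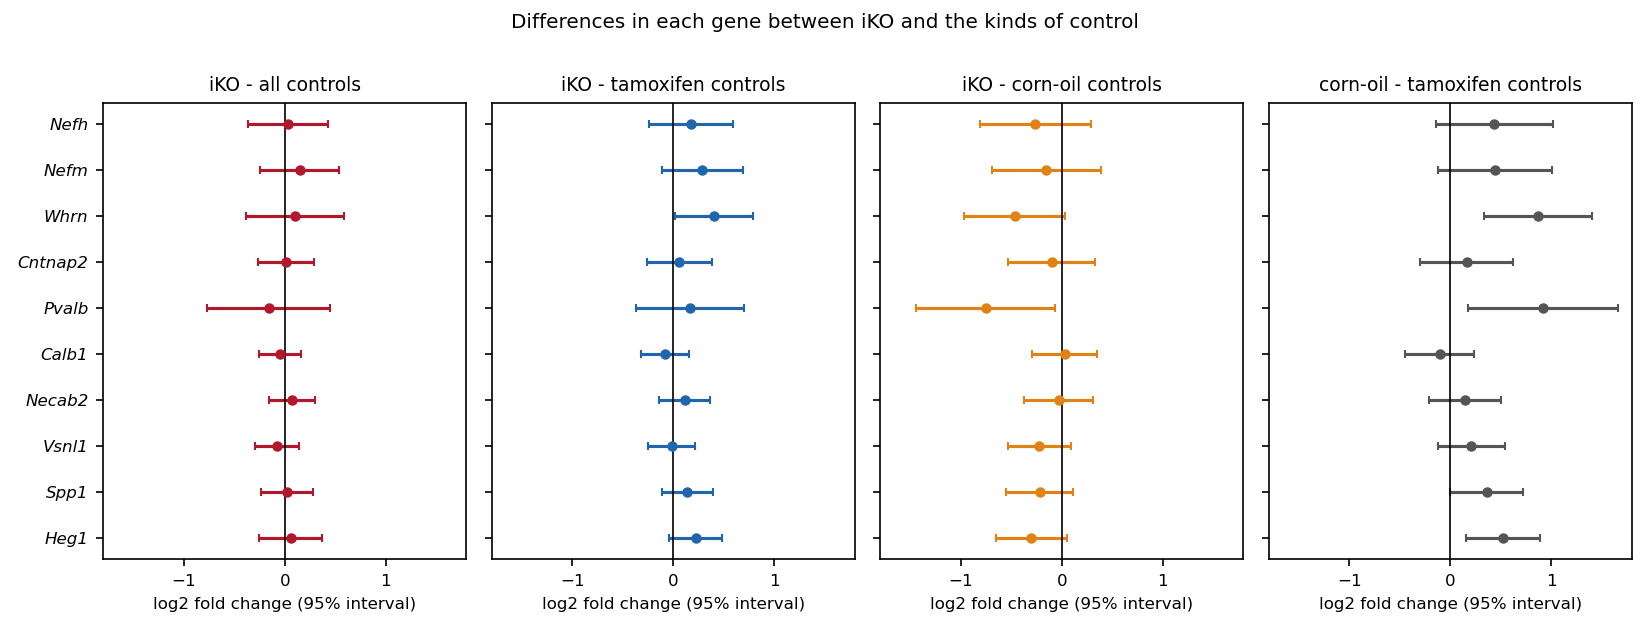
Each panel plots the log2 fold change of the 10 genes with its 95% interval for 1 comparison, and a value right of 0 is higher in the group named first. Intervals of all 10 genes cover 0 for iKO against all controls, while Whrn lies right of 0 against tamoxifen-injected controls (0.40) and Pvalb left of 0 against corn-oil controls (-0.75).

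The corn-oil controls were set against the tamoxifen-injected controls directly. No gene passed the threshold, 0 of 10 and 0 of all genes tested (0%, edgeR's quasi-likelihood test), but 4 of 10 had an unadjusted p under 0.05, beside 1900 of all genes tested (11.6%). All 4 were higher in corn-oil controls. Whrn averaged 21.8 ± 1.48 CPM in corn-oil controls (SD, n = 2) and 13.0 ± 2.51 CPM in tamoxifen-injected controls (SD, n = 4), a log2 fold change of 0.87 (95% interval 0.33 to 1.41, edgeR adjusted p = 0.393). Heg1 had 0.52 (0.15 to 0.89), Pvalb had 0.92 (0.18 to 1.66) and Spp1 had 0.36 (0.00 to 0.72), with edgeR adjusted p-values up to 0.430. The median of the 10 genes was 0.40, and 9 of the 10 were positive. Neither was counted over all genes for this comparison, so no share stands beside them. With no filter on low counts, Pvalb, Whrn, Nefh, Nefm and Heg1 were called, 5 of 10 beside 443 of 35885 genes (1.23%).

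Single libraries moved these values between controls. Without control 6, Pvalb had a log2 fold change of 0.30 (95% interval -0.44 to 1.03) in corn-oil against tamoxifen-injected controls, while Whrn had 0.94 (0.26 to 1.62), again with a lone corn-oil control. Without iKO 1, which enters through the shared estimate of the spread and of the difference between sexes, Whrn was called at 0.95 (SE 0.14, edgeR adjusted p = 0.0266), 1 of 10 beside 14 of all genes tested (0.0851%).

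Sex was a term in these fits. Between males and females 0 of 10 genes were called, beside 9 of all genes tested (0.0549%), and 0 of 10 had an unadjusted p under 0.05, beside 4.11% of all genes tested (edgeR). The smallest p was that of Necab2, with a log2 fold change of -0.21 for male against female (95% interval -0.44 to 0.02). The interaction of group and sex gave 0 of 10 calls, with 0 of all genes tested (0%), and 0 of 10 at an unadjusted p under 0.05, beside 589 of all genes tested (3.59%). Heg1 had the largest difference between sexes: iKO against control gave 0.34 (-0.10 to 0.78) in females and -0.14 (-0.51 to 0.23) in males, and iKO 1 is female. Both corn-oil controls are male, so kind of control and sex overlap here.

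Both neurofilament subunits assemble into 1 filament, and a difference in their ratio within a library was noticed after the values were seen. Nefm over Nefh, as a ratio of CPM, was 1.44, 1.48, 1.42, 1.41, 1.40 and 1.39 in iKO 1 to 6, against 1.30, 1.25, 1.40, 1.33, 1.30 and 1.36 in controls 1 to 6. All 6 iKO libraries lay above the control median, and control 3 alone overlapped with them. The means were 1.42 ± 0.03 in iKO and 1.32 ± 0.05 in controls (SD, n = 6 each, 2-sided exact permutation p = 0.00649). Of the 45 pairs of the 10 genes this was the 1 pair with an exact permutation p under 0.05, and over the 45 pairs its BH-adjusted p was 0.292, so it did not pass.

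Within each run of sample numbers the mean was higher in iKO, by a smaller step in the later run. The runs are parts of the libraries in which the difference was noticed, so they are no independent test. The earlier run had tamoxifen-injected controls and both sexes, the later run corn-oil controls and males alone. Run, kind of control and sex therefore cannot be told apart here. In replicates 1 to 4 the ratio was 1.44 ± 0.03 in iKO and 1.32 ± 0.06 in controls (SD, n = 4 each), and in replicates 5 and 6 it was 1.39 ± 0.01 in iKO and 1.33 ± 0.04 in controls (SD, n = 2 each). Against the light subunit, Nefm over Nefl was 1.10 ± 0.13 in iKO and 1.04 ± 0.10 in controls (SD, n = 6 each, exact permutation p = 0.331). Nefh over Nefl was 0.78 ± 0.09 in iKO and 0.79 ± 0.08 in controls (SD, n = 6 each, exact permutation p = 0.848). The bases that Nefm and Nefl share can affect both of these ratios and the Nefm over Nefh ratio. How reads there were counted is not stated, and the part of those bases was not tested.

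**Figure D5:**
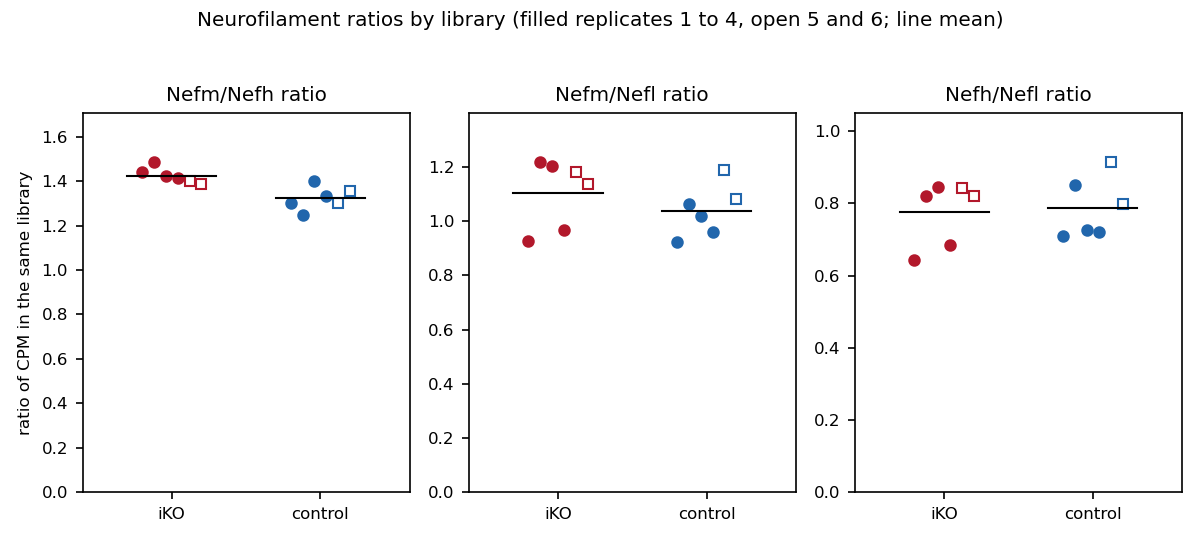
Each point is the ratio of 2 CPM values in 1 library, with iKO left of control, filled points for replicates 1 to 4 and open squares for 5 and 6, the line marking the mean, and vertical axes that start at 0. For Nefm over Nefh the 6 iKO libraries lie between 1.39 and 1.48 and the controls between 1.25 and 1.40.

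Other genes of large-diameter neurons were read from the same fit. Of 11 further proprioceptor genes, 12 A-fibre touch receptor genes and 12 large axon channel genes, all 35 were tested and 1 was called, Ntrk3, beside 0.946% of all genes tested. Ntrk3 encodes TrkC, the receptor for neurotrophin-3 that proprioceptors need to survive. It ran from 461 to 780 CPM in iKO, with a median of 726 CPM, against 402 to 528 CPM in controls, with a median of 471 CPM, and the groups overlapped. It rose by 0.58 on the log2 scale (SE 0.11, edgeR adjusted p = 0.0228). Within replicates 1 to 4, where all controls were tamoxifen-injected, it had 0.61 (edgeR adjusted p = 0.323). Within replicates 5 and 6, with 2 males per group and corn-oil controls alone, it had 0.54 (edgeR adjusted p = 0.0322). Over fits that each left out 1 library the log2 fold change was 0.53 to 0.66. The call was lost on leaving out any 1 of iKO 3, 4, 5 or 6 or control 1 or 4 (edgeR adjusted p up to 0.0739), while without iKO 1 the value was 0.66 (edgeR adjusted p = 8.43e-05).

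The other proprioceptor genes had values on both sides of 0, and 6 of the 11 were positive with a median log2 fold change of 0.06. Genes in this paragraph other than those with the smallest p of their list were chosen after their values were seen. Etv1, a transcription factor of proprioceptors, averaged 75.1 ± 10.7 CPM in iKO and 88.8 ± 17.2 CPM in controls (SD, n = 6 each). Runx3, a transcription factor that proprioceptors need, averaged 5.86 ± 1.19 CPM in iKO and 4.98 ± 2.15 CPM in controls. Neither passed the test (edgeR adjusted p = 0.617 and 0.819). At an unadjusted p under 0.05, beside 9.52% of all genes tested, were 2 of 11 proprioceptor genes (Ntrk3 and Pou4f3, both higher in iKO), 3 of 12 A-fibre touch receptor genes (Colq and Cacna1h higher, Ret lower) and 0 of 12 large axon channel genes. Of the A-fibre touch receptor genes, 9 of 12 were positive, with a median of 0.09. The smallest p was that of Ret, the GDNF receptor kinase, at 644 ± 90.6 CPM in iKO and 759 ± 44.8 CPM in controls (log2 fold change -0.24, edgeR adjusted p = 0.402). Of the large axon channel genes, 8 of 12 were positive, with a median of 0.05, and Kcnab2, a potassium channel beta subunit, had the smallest p (0.15, edgeR adjusted p = 0.652).

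Relatives of the 10 genes by family gave 0 calls among 18 tested with edgeR, beside 0.946% of all genes tested. At an unadjusted p under 0.05 were 3 of 18, all lower in iKO, beside 9.52% of all genes tested. The smallest p was that of Hpca, which encodes hippocalcin, a neuronal calcium sensor of the same family as Vsnl1. It ran from 27.7 to 30.6 CPM in iKO and from 30.7 to 39.8 CPM in controls, so the groups did not overlap, as for 1.54% of all genes tested. Its log2 fold change was -0.28 (SE 0.06, edgeR adjusted p = 0.0575). Chosen after the values were seen, 2 further members of that family, Hpcal1 and Ncald, had -0.26 and -0.17 (edgeR adjusted p = 0.0849 and 0.394), while Ncs1 had 0.05 and Vsnl1 itself -0.08. Nefl averaged 2369 ± 361 CPM in iKO and 2358 ± 357 CPM in controls (SD, n = 6 each).

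Partners of the 10 genes also gave 0 calls with edgeR, among 17 tested, and 1 at an unadjusted p under 0.05, beside the same 9.52% of all genes tested. Ccm2, which encodes a partner of Krit1 in the pathway that Heg1 feeds, had the smallest p and ran from 49.5 to 54.5 CPM in iKO and from 39.5 to 47.1 CPM in controls, with no overlap, as for 1.54% of all genes tested (log2 fold change 0.23, SE 0.06, edgeR adjusted p = 0.116). Krit1 itself averaged 67.7 ± 7.48 CPM in iKO and 71.7 ± 5.90 CPM in controls (SD, n = 6 each). The potassium channel genes Kcna1 and Kcna2, whose proteins gather with Caspr2, had log2 fold changes of 0.06 and -0.06, and the adhesion gene Cntn2 had -0.13. Receptors of osteopontin were Cd44, with -0.09, and the integrin subunit Itgav, with 0.03.

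Markers of other cells were read beside these values. At an unadjusted p under 0.05 were 0 pan-neuronal, 1 small-diameter neuron and 3 myelinating Schwann cell genes, beside 9.52% of all genes tested. Of 12 pan-neuronal genes 0 were called and 8 were positive, with a median log2 fold change of 0.04, and the smallest p was that of Syt1 (0.17, edgeR adjusted p = 0.537). Of 10 small-diameter neuron genes 0 were called and 3 were positive. Of 10 myelinating Schwann cell genes 0 were called and 9 were positive, with a median log2 fold change of 0.24. Over all genes tested, 0.946% were called and 50% were positive. The summed Schwann cell level was 6855 CPM in iKO 1 and 4793 to 5928 CPM in the other iKO libraries. It was 4188 to 4797 CPM in tamoxifen-injected controls and 5340 and 5177 CPM in corn-oil controls. Spinal cord neuron genes summed to 2.03 to 6.36 CPM in iKO and 1.91 to 4.50 CPM in controls, and the motor neuron gene Mnx1 averaged 0.04 CPM in iKO and 0.03 CPM in controls. The part of any of these cells in the values of the 10 genes was not tested.

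The genes most like Pvalb across the 12 libraries were found among 12452 genes with a mean log2 CPM of 2 or more, by Pearson's r of log2 CPM. They were Arhgef3 (r = 0.91, Spearman's rho = 0.82), Nmnat1 (0.89, 0.85), Pik3r5 (0.86, 0.88), Iigp1 (0.84, 0.66) and Car2 (0.83, 0.90). They were chosen for this likeness, so no test is given, and all points share library and depth. Leaving out control 6 and control 1, the libraries farthest from the median of Pvalb, r was 0.85 for Arhgef3, 0.80 for Nmnat1, 0.76 for Pik3r5, 0.81 for Car2 and 0.56 for Iigp1.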

How the data were processed

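Poly(A) RNA of 12 dorsal root ganglion libraries was sequenced from a TruSeq kit that does not record strand, per the labels' protocols. The submitters' processing notes name bcl2fastq 2.20.0.422, STAR 2.7.8a, featureCounts 2.0.1 and the GRCm39 build; the sources used here give neither annotation release nor counting options. The values deposited by the authors are raw counts per gene, not normalized. Symbols came from GENCODE M21 (GRCm38) by gene identifier, which named 52135 of 55416 identifiers (94.1%). Because builds differ, it gave only names, exon lengths and overlaps.

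Groups came from the labels. Counts were filtered with filterByExpr, scaled by TMM and tested with edgeR 4.0.16 (R 4.3.3, limma 3.58.1), robust quasi-likelihood, with a sex term (9 residual degrees of freedom). Tests were 2-sided, with p-values adjusted by Benjamini-Hochberg (BH) over all genes tested, threshold 0.05. Kinds of control were compared in 1 fit of 3 groups. The biological coefficient of variation was 12.8%. For genes counted as well as the 10, the spread between libraries more than counting error therefore set the precision. For list genes with few counts this need not hold. The p-values set differences against the spread between these libraries. DESeq2 1.42.0, other scaling, filters and left-out libraries were alternatives. The procedure was tested on simulated data drawn without a sex effect, kinds of control or outlying libraries, so that test does not bear on these.

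The 10 genes, the lists and the comparisons were chosen with earlier results of these data known. Named by rule were Prdm12, the 10 genes, of each list up to 4 called genes or else the gene with the smallest p, and the 5 genes most like Pvalb (log2 CPM with a prior count of 2); some genes this rule names are not reported here. Ratios, levels relative to pan-neuronal genes and the fits without 3 libraries or, against corn-oil controls, without control 6 were added after the values were seen. Of the other lists, muscle, macrophage, bone cell, endothelial and satellite glia genes had 0 calls each, beside 0.946% of all genes tested. Calb2, Kcna1, Kcna2, Ibsp and Dmp1 stand in 2 lists each. Equal replicate numbers were not taken to pair libraries: correlations of their deviations ran from -0.15 to 0.22. No 2 libraries were identical.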

Additional observations from a re-analysis of the deposited data

Results flagged for a closer look

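Each of the 10 genes was examined for a library far from the rest of its group, which made 20 groups of 6 libraries, and about 1 in 20 such groups is marked by chance. Pvalb in control 6, at 152 CPM, was marked: its gap to the next control, 86.9 CPM, was 0.627 of the range of the group. Cntnap2 in iKO 1, at 163 CPM, was marked as well: its gap to the next iKO library, 284 CPM, was 0.855 of the range. Skeletal muscle genes summed to 576 CPM in control 6, and pan-neuronal genes to 8346 CPM in iKO 1, the lowest of the 12 libraries.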

How the results depend on the processing

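Of the 10 genes, 0 were called between iKO and control under each alternative run for that comparison but 1, and 2 (Whrn and Nefm) in the added fit without the corn-oil controls and iKO 1, in which 1586 of all genes and 11 of 35 other large-diameter neuron genes were called. Counts of all genes called, 155 as reported, were 253 with no filter on low counts, 278 with DESeq2, 79 with the replicate number as a block, 235 without the corn-oil controls, 35 in replicates 1 to 4 alone and 82 in replicates 5 and 6 alone. Leaving out 1 library at a time gave 92 to 364, and the count of large-diameter neuron genes, 1 as reported, was 0 to 1 and 0 in replicates 1 to 4 alone. With no filter, genes of the 10 called were 2 against tamoxifen-injected controls (Whrn and Nefm), 1 against corn-oil controls (Pvalb) and 5 between the kinds of control (Pvalb, Whrn, Nefh, Nefm and Heg1); the cause was not tested. Leaving out 1 library at a time gave 0 to 1 against tamoxifen-injected controls and 0 to 1 between the kinds of control, in both cases Whrn without iKO 1. Log2 fold changes near 0 changed sign, none of them called. With the replicate block they were -0.049 for Whrn, -0.075 for Nefh, 0.0050 for Calb1, -0.048 for Spp1 and -0.084 for Cntnap2, and the block changed no call on the 10 genes. Equal numbers were not taken as pairs, since the labels do not tie them and correlations ran from -0.15 to 0.22; 3 of 6 iKO libraries correlated best with their own number, a hint from the data and not from the design. In replicates 5 and 6 alone they were -0.23 for Whrn, -0.14 for Nefh, -0.071 for Nefm, 0.13 for Calb1, -0.065 for Spp1, -0.044 for Cntnap2 and -0.28 for Heg1. With no sex term Nefh had -0.011 and Cntnap2 -0.015, and with run of numbers as a term Spp1 had -0.0032 and Cntnap2 -0.0014. Pvalb had 0.18 without the corn-oil controls and, in the added fit, 0.16, where Vsnl1 had 0.070. Over left-out libraries the ranges were -0.055 to 0.14 for Nefh, -0.032 to 0.10 for Cntnap2, -0.040 to 0.17 for Heg1, -0.048 to 0.10 for Spp1, -0.092 to 0.061 for Calb1 and -0.28 to 0.12 for Pvalb. The lowest count of any of the 10 genes in a library was 158 (Whrn in control 4). The comparisons by kind of control rest on 4 and 2 control libraries, and the labels give no batch beyond the numbers.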

Other observations

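Satellite glia genes, which mark the cells that wrap sensory neuron bodies, summed to 4136 CPM in iKO 1 and to 2877 to 3302 CPM in the other 5 iKO libraries, against 2803 to 3287 CPM in controls, with 0 of 8 genes called. Bone cell genes summed to 52.2 CPM in iKO 1 and to 26.0 to 27.8 CPM in the other iKO libraries, against 27.2 to 39.6 CPM in controls. Of the 6 bone cell genes tested, 0 were called (edgeR's quasi-likelihood test). The calls in both lists stand beside 0.946% of all genes tested. At an unadjusted p under 0.05 both lists had 0, beside 9.52% of all genes tested. Oncomodulin, Ocm, the parvalbumin relative of hair cells, was at 0 counts in all iKO libraries and averaged 0.02 CPM in controls.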
